A study of Caenorhabditis elegans with 8 samples.

Results

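The 8 genes described here encode proteins of C. elegans heterochromatin that act beside the DREAM complex. They are met-2, lin-65, set-25, lin-61, hpl-1, hpl-2, lin-13 and lin-15B. They were taken by name from among the 46748 gene identifiers counted in every library, and all 8 were found and passed the filter on low counts, which 12664 genes passed. The genes are grouped by their known roles.

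The libraries are poly(A)-selected, strand-specific RNA-seq libraries of whole late embryos, 4 from a strain called WT and 4 from a strain called 3A. Both strains carry lin-52 fused to GFP and 3xFLAG at its own locus, as allele bn139 in WT and bn151 in 3A, and 3A differs by the substitutions L42A, C44A and E46A in LIN-52. The series asked which genes are misexpressed once LIN-35 no longer associates with MuvB, the part of DREAM that holds LIN-52. Per the labels' protocols, adults grown in liquid culture for 72 h at 20 °C were bleached, and the embryos were kept for up to 3.5 h before freezing, so a library holds embryos of a range of ages. The labels call the replicates biological and give no number of independent lines per strain. In whole embryos, fewer cells that express a gene and less RNA per cell cannot be told apart.

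In C. elegans embryos, methylation of lysine 9 of histone H3 (H3K9) marks silent chromatin, which is gathered at the nuclear periphery. MET-2, the SETDB1-type methyltransferase, places mono- and dimethylation with its cofactor LIN-65, and SET-25 places trimethylation. HPL-1 and HPL-2, the worm HP1 proteins, and LIN-61, which carries MBT repeats, bind the methylated lysine. LIN-13, a large zinc finger protein, acts with HPL-2, and LIN-15B is a zinc finger protein that keeps germline genes silent in somatic cells. Most of these genes are of synMuv class B, named for a multivulva phenotype that appears only together with a class A mutation, and the DREAM subunits belong to the same class.

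Library depth and makeup set the resolution. Between 14667743 and 68040557 read pairs were assigned to genes per library. Ribosomal RNA genes took from 0.720% to 3.24% of these in WT and from 1.75% to 40.7% in 3A. WT replicate 1 and 3A replicates 1, 3 and 4 had the 4 highest shares, at 3.24% or more, against at most 1.75% in the other 4 libraries. The markers of early embryos and maternal RNA that were listed (18 genes, all detected) summed to between 85.4 and 113.3 CPM (library-scaled counts, with libraries set level by edgeR's trimmed mean of M-values, TMM) in these same 4 libraries and to between 45.5 and 62.4 CPM in the others. By group, that sum ranged from 45.5 to 112 CPM in WT and from 61.9 to 113.3 CPM in 3A. The 20 late differentiation markers summed to between 2736 and 23062 CPM in WT and between 4385 and 13524 CPM in 3A. Their 3 highest sums were also in libraries of that set, WT replicate 1 (23062 CPM), 3A replicate 1 (13524 CPM) and 3A replicate 4 (6991 CPM), while 3A replicate 3 stood at 4385 CPM. WT replicate 4 was close to 3A replicate 4, at 6387 CPM. By median log2 level over the 20 genes (0.5 CPM added), 3A replicate 4 stood at 3.97, 3A replicate 2 at 3.95 and WT replicate 4 at 3.93. Muscle, nerve and epidermal genes defined for late embryos were present in every library. Markers of adult intestine, 6 vitellogenin genes, varied widely between libraries. They summed to 76.6 CPM in WT replicate 4, 68.4 CPM in 3A replicate 3 and 102 CPM in 3A replicate 4. In the other libraries they summed to between 1.45 and 12.3 CPM. The 22 major sperm protein genes, of which 1 was at 0 throughout, were low, at 1.13 to 3.66 CPM in sum.

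None of the 8 genes differed between 3A and WT after adjustment (edgeR quasi-likelihood test with Benjamini-Hochberg adjustment over all genes tested, called at an adjusted p-value under 0.05). Across all genes tested 0.371% were called. DESeq2 also called 0 of the 8. Before adjustment 2 of the 8, lin-13 and lin-15B, had a p-value under 0.05, as did 9.75% of all genes tested. All 8 fitted log2 fold changes were above 0, from 0.03 for lin-61 to 0.91 for lin-15B, with a median of 0.27. Among all genes tested 42.8% were above 0 and the median was -0.08. The 8 genes were chosen with earlier results of these data known, so this comparison is a description only. The levels of every one of the 8 genes overlapped between the groups, while 6.16% of all genes tested had no overlap. With library size alone as the scaling, the median of all genes fell by a further 0.32 and hpl-1, hpl-2, lin-61, lin-65 and met-2 had log2 fold changes below 0. Library size here includes counts of ribosomal RNA genes, up to 3.24% in a WT library and 40.7% in a 3A library. The part of ribosomal RNA in that shift was not tested. Measured from the median of all genes, 8 of the 8 lay above it with TMM and 7 of the 8 with library size alone. For hpl-1, hpl-2, lin-65 and met-2 that distance was 0.15 to 0.37 with TMM and 0.20 to 0.40 with library size alone, and for lin-61 it was 0.11 and -0.00022.

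**Figure D1:**
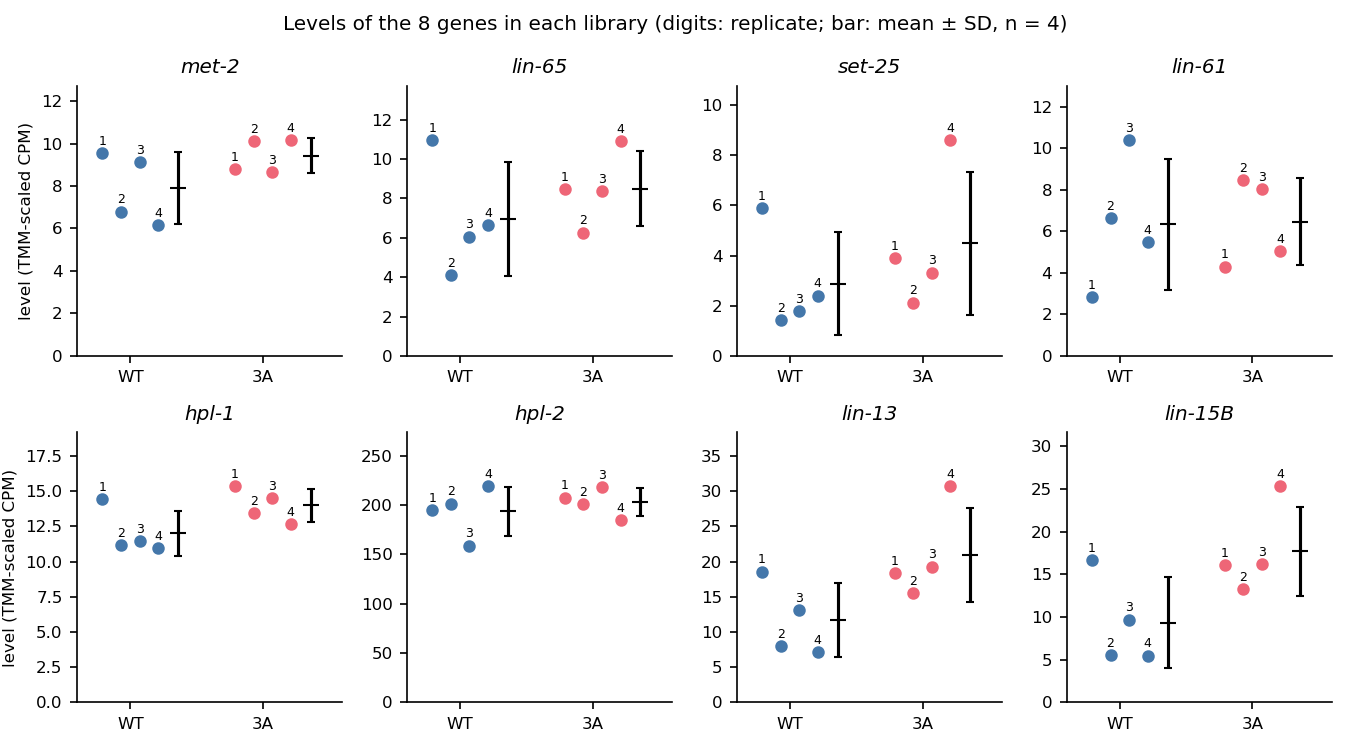
Level of each gene in every library, in TMM-scaled CPM, with WT in blue, 3A in red, digits for the replicate number and bars for the mean and SD (n = 4 each). For lin-13 and lin-15B WT replicate 1 lies among the 3A libraries while the other 3 WT libraries lie below all of them, and for hpl-2 the groups coincide.

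The enzymes come first. met-2 (WBGene00019883; WBcel235 chromosome III, 8375300 to 8380848, plus strand; 9 exons in 1 annotated transcript) stood at 9.56, 6.795, 9.12 and 6.15 CPM across WT replicates 1 to 4, and across the 3A replicates in the same order at 8.79, 10.1, 8.64 and 10.2 CPM. The 3A libraries lay close together, with replicates 1 and 3 in the upper part of the WT range and replicates 2 and 4 just above it. The log2 fold change was 0.25 (SE 0.25; 95% interval -0.29 to 0.79, edgeR's adjusted p = 0.776). A change of met-2 mRNA of more than 1.72-fold upwards lies outside that interval.

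lin-65 (WBGene00022149; chromosome I, 1755329 to 1766400, plus strand), the cofactor that brings MET-2 into the nucleus, stood at 10.97, 4.09, 6.06 and 6.64 CPM across WT replicates 1 to 4, and across the 3A replicates in the same order at 8.46, 6.26, 8.38 and 10.9 CPM. Its highest library was WT replicate 1, level with 3A replicate 4. Its log2 fold change was 0.29 (SE 0.33; 95% interval -0.42 to 1.00, edgeR's adjusted p = 0.812).

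set-25 (WBGene00012802; chromosome III, 13283824 to 13293090, minus strand) was the weakest and the most variable of the 8. It stood at 5.90, 1.44, 1.77 and 2.41 CPM across WT replicates 1 to 4, and across the 3A replicates in the same order at 3.90, 2.13, 3.32 and 8.61 CPM, from 29 to 232 counts per library. WT replicate 1 and 3A replicate 4 stood above the other libraries of their groups, and the highest library was 5.99 times the lowest. The log2 fold change of 0.62 (SE 0.52; 95% interval -0.52 to 1.76, edgeR's adjusted p = 0.739) moved with these libraries and was 0.11 without 3A replicate 4 and 1.27 without WT replicate 1 (adjusted p = 0.992 and 0.125). The gene shares 64 bases of exon with unc-64, a syntaxin gene on the opposite strand. Counting by strand would separate the pair, but whether the deposited counts were made by strand was not tested.

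Among the proteins that bind methylated H3K9, lin-61 (WBGene00003041; chromosome I, 7248827 to 7251282, minus strand) ran against most of the others across libraries. Its level was 2.82, 6.62, 10.4 and 5.48 CPM across WT replicates 1 to 4, and 4.295, 8.46, 8.01 and 5.04 CPM across the 3A replicates in the same order. WT replicate 1, where set-25, lin-13 and lin-15B were highest among WT libraries, was the lowest library for lin-61. The groups had nearly equal means, 6.33 ± 3.14 CPM for WT and 6.45 ± 2.09 CPM for 3A (SD, n = 4 each), and the log2 fold change was 0.03 (SE 0.39; 95% interval -0.82 to 0.88, edgeR's adjusted p = 0.988).

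hpl-1 (WBGene00001995; chromosome X, 13245390 to 13247044, plus strand) stood at 14.4, 11.2, 11.5 and 10.96 CPM across WT replicates 1 to 4, and across the 3A replicates in the same order at 15.3, 13.4, 14.5 and 12.6 CPM. Apart from WT replicate 1, every WT library lay below every 3A library, but the distance was small. The log2 fold change was 0.22 (SE 0.22; 95% interval -0.27 to 0.71, edgeR's adjusted p = 0.784).

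hpl-2 (WBGene00001996; chromosome III, 10752195 to 10755530, minus strand; 3 annotated transcripts) was the most abundant and the steadiest of the 8. It stood at 195, 201, 159 and 219 CPM across WT replicates 1 to 4, and across the 3A replicates in the same order at 208, 201, 218 and 185 CPM, with at least 2018 counts in each library. The highest library was 1.38 times the lowest. With a log2 fold change of 0.07 (SE 0.25; 95% interval -0.48 to 0.62, edgeR's adjusted p = 0.95), a change of more than 1.54-fold upwards lies outside the interval.

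The largest differences were those of the zinc finger genes. lin-13 (WBGene00003002; chromosome III, 7700338 to 7709491, minus strand; 22 exons in 1 annotated transcript) stood at 18.6, 7.96, 13.1 and 7.14 CPM across WT replicates 1 to 4, and across the 3A replicates in the same order at 18.4, 15.5, 19.3 and 30.7 CPM. Every 3A library lay above WT replicates 2, 3 and 4, and WT replicate 1 lay within the 3A range. The means were 11.7 ± 5.29 CPM for WT and 20.96 ± 6.68 CPM for 3A (SD, n = 4 each), with a log2 fold change of 0.83 (SE 0.35; 95% interval 0.07 to 1.596, edgeR's unadjusted p = 0.0342 and adjusted p = 0.484). The gene ranked 896 by p-value among the 12664 tested.

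lin-15B (WBGene00023497; chromosome X, 15726123 to 15732025, plus strand) followed the same course, at 16.7, 5.54, 9.69 and 5.48 CPM across WT replicates 1 to 4, and across the 3A replicates in the same order at 16.1, 13.3, 16.2 and 25.3 CPM. Again WT replicate 1 stood with the 3A libraries and the other 3 WT libraries stood below them all. The means were 9.35 ± 5.275 CPM for WT and 17.7 ± 5.22 CPM for 3A (SD, n = 4 each), with a log2 fold change of 0.91 (SE 0.38; 95% interval 0.08 to 1.74, edgeR's unadjusted p = 0.0335 and adjusted p = 0.482).

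The call for lin-15B turned on WT replicate 1. Without it the log2 fold change was 1.35 (edgeR adjusted p = 0.0439) for lin-15B and 1.15 (adjusted p = 0.0689) for lin-13. In that fit 1.49% of all genes tested were called. hpl-1, lin-13 and lin-15B then had no overlap between the groups, as had 17.1% of all genes tested. Without 3A replicate 4, the library with the highest levels of both genes, the log2 fold changes were 0.70 for lin-15B and 0.60 for lin-13 (adjusted p = 0.946 for each). Both genes kept a positive log2 fold change in each of the 15 alternative fits, between 0.56 and 1.35 for lin-15B and between 0.43 and 1.15 for lin-13.

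**Figure D2:**
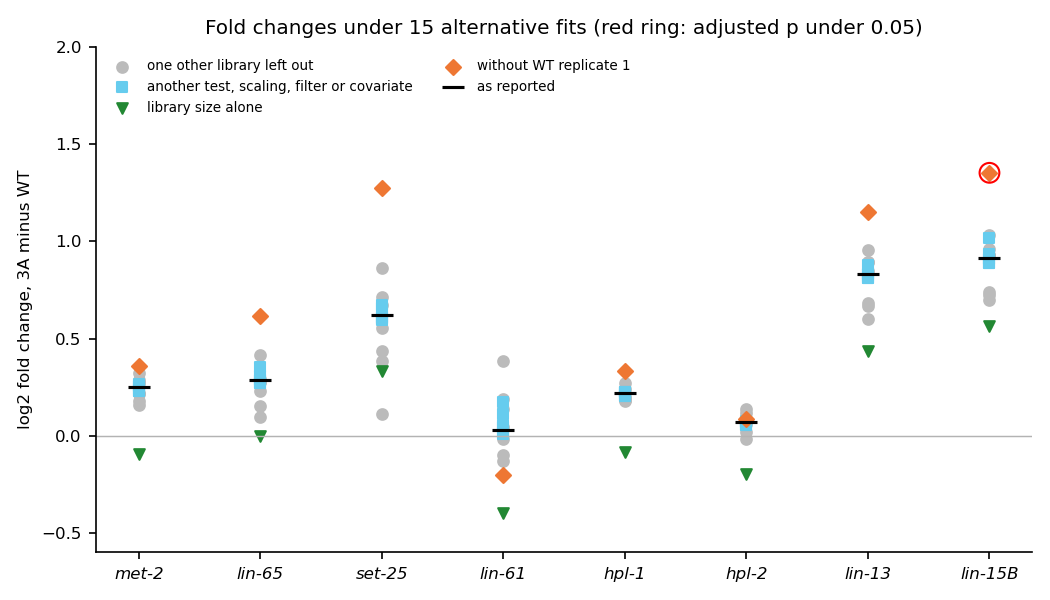
Fitted log2 fold change (3A minus WT) of each gene as reported (black dash) and under 15 alternative fits, with fits at an adjusted p-value under 0.05 ringed in red. A single point is ringed, lin-15B without WT replicate 1 at 1.35, and with library size alone as the scaling (green) 5 of the 8 genes lie below 0.

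lin-13 and lin-15B tracked each other from library to library. Over the 8 libraries the Pearson correlation of their log2 CPM was 0.993, and among 10509 other genes that averaged 1 CPM or more and had no library at 0 each was the gene most like the other. epi-1, a laminin alpha chain gene, came next for both, at 0.983 for lin-13 and 0.988 for lin-15B. The ratio of lin-15B to lin-13 counts per kilobase of exon, which does not depend on how libraries are scaled, stayed within a 1.29-fold range over all 8 libraries while each level ranged more than 4-fold (4.30-fold for lin-13, 4.61-fold for lin-15B). The mean log2 ratio was 0.25 ± 0.16 for WT and 0.38 ± 0.04 for 3A (SD, n = 4 each), and this pair was singled out after its values were seen. Such correlations over 8 libraries also carry what the libraries share, in depth, ribosomal RNA share and embryo age.

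The other genes had their closest profiles outside the group. The genes most like them, with the correlation over the 8 libraries, were spat-1 for lin-65 (0.994), tdpt-1 for set-25 (0.991), F48E3.6 for lin-61 (0.988), nprt-1 for met-2 (0.978), F44E2.8 for hpl-1 (0.953) and mrps-5 for hpl-2 (0.94). Within the group, lin-65 and set-25 were nearest to each other (0.947). Among all genes compared, set-25 ranked only 64 for lin-65, and lin-65 ranked 72 for set-25. Within the group met-2 was nearest to lin-13 (0.873, rank 71 among all genes) and hpl-1 to lin-15B (0.750, rank 443). hpl-2 and lin-61 had no close partner among the 8, with best correlations of 0.285 and -0.037.

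The levels of 4 of the 8 genes moved with the makeup of the libraries. For lin-13, lin-15B, lin-65 and set-25 the 4 highest libraries were WT replicate 1 and 3A replicates 1, 3 and 4, which were also the 4 with the highest ribosomal RNA shares and the 4 with the highest sums of early embryo markers. The same 4 libraries were highest for 10.7% of the 10510 genes compared. WT replicate 1 and 3A replicates 1 and 4, but not 3A replicate 3, also had the 3 highest sums of late markers, with 3A replicate 4 close to WT replicate 4. Since 3 of these 4 libraries are 3A, the difference between strains and the difference between these libraries overlap. In 3A replicate 2, the remaining 3A library, lin-13 stood at 15.5 CPM and lin-15B at 13.3 CPM, against at most 13.1 and 9.69 CPM in WT replicates 2, 3 and 4. Within the 4 libraries lin-13 stood at 18.6 CPM in WT replicate 1 and at 18.4, 19.3 and 30.7 CPM in 3A replicates 1, 3 and 4. lin-15B stood at 16.7 CPM in WT replicate 1 and at 16.1, 16.2 and 25.3 CPM in the same 3A libraries, so for both genes 3A replicates 1 and 3 lay near the WT library and 3A replicate 4 well above it. The part of library makeup in the differences between strains was not tested.

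**Figure D3:**
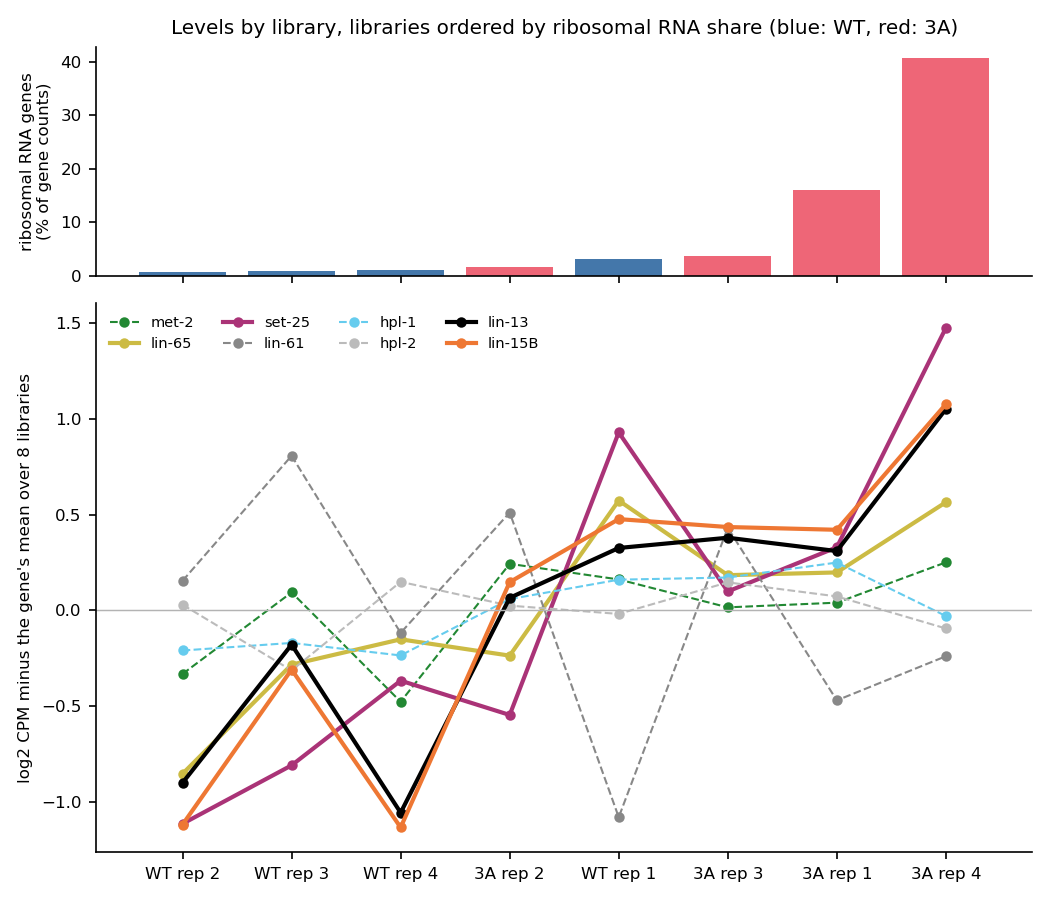
Upper panel, share of gene counts taken by ribosomal RNA genes in each library (WT blue, 3A red); lower panel, log2 CPM of each gene minus its mean over the 8 libraries, with libraries in order of that share. The solid lines of lin-13, lin-15B, lin-65 and set-25 are all highest in the 4 libraries on the right, from WT replicate 1 to 3A replicate 4.

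Fold changes also moved with transcript length over all genes tested. The median log2 fold change was -0.18 for the 4001 genes with under 1000 bases of exon and -0.08 for the 5167 genes from 1000 to under 2000 bases. It was -0.03 for the 2714 genes from 2000 to under 4000 bases and 0.11 for the 703 genes of 4000 bases or more. lin-13, with 7053 bases of exon, and lin-15B, with 4590, are in the longest class, and so is met-2, with 4131. The part of length in their differences was not tested.

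On a scale of CPM per kilobase of exon, which allows levels of different genes to be set side by side, the order was hpl-2, hpl-1, lin-61, lin-65, lin-15B, lin-13, met-2 and set-25. hpl-2 stood at 150 ± 19.6 CPM per kilobase in WT and 158 ± 10.9 in 3A, and hpl-1 at 14.96 ± 2.02 and 17.4 ± 1.48 (SD, n = 4 each). hpl-2 was above hpl-1 and hpl-1 above the other 6 genes in all 8 libraries, with no overlap of their ranges. The remaining 6 had means over the 8 libraries between 1.32 and 3.21 CPM per kilobase, and the ranges of all neighbours in that part of the order overlapped. lin-61 was above lin-65 in 5 of 8 libraries, lin-65 above lin-15B in 4 of 8 and lin-15B above lin-13 in all 8. lin-13 was above met-2 in 4 of 8 and met-2 above set-25 in 7 of 8. Among the 12174 protein-coding genes tested, hpl-2 lay at percentile 94.4 of the level per length, hpl-1 at 76.5 and set-25 at 28.01.

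**Figure D4:**
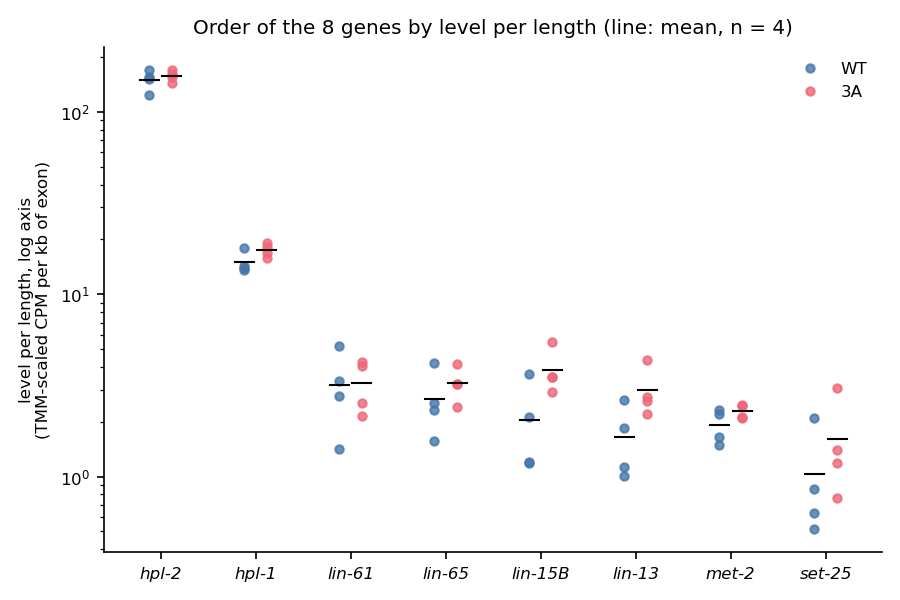
Level per length of the 8 genes on a log axis, in TMM-scaled CPM per kilobase of exon, 1 point per library (WT blue, 3A red) with the group means as lines (n = 4). hpl-2 and hpl-1 stand apart from the other 6 genes, whose ranges overlap.

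The balance between the HP1 genes differed between the strains by less than the spread of the WT libraries, with a difference of 0.15 in the mean log2 ratio against an SD of 0.28 in WT and 0.07 in 3A. With 1 library left out that difference ranged from 0.047 (without WT replicate 4) to 0.23 (without WT replicate 1). The log2 ratio of hpl-1 to hpl-2 per length was -3.08, -3.49, -3.11 and -3.64 across WT replicates 1 to 4, and -3.08, -3.22, -3.23 and -3.19 across the 3A replicates in the same order. The 3A libraries fell inside the WT range, and hpl-2 exceeded hpl-1 by a geometric mean of 10.05-fold in WT and 9.05-fold in 3A.

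The balance between the methyltransferase genes varied more. The log2 ratio of met-2 to set-25 per length was 0.13, 1.68, 1.80 and 0.79 across WT replicates 1 to 4, and 0.61, 1.69, 0.82 and -0.32 across the 3A replicates in the same order. set-25 exceeded met-2 in 1 library, 3A replicate 4. The group means, 1.102 ± 0.79 for WT and 0.70 ± 0.82 for 3A (SD, n = 4 each), differed by -0.40, less than either SD. The size of that difference moved with single libraries, while its sign stayed the same with any 1 library left out. It was -0.063 without 3A replicate 4, -0.17 without WT replicate 3, -0.21 without WT replicate 2, and -0.73 without WT replicate 1 or 3A replicate 2.

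lin-15B shares its locus with lin-15A, a synMuv class A gene on the same strand directly downstream, and the annotated exons of the pair overlap by 5 bases. lin-15A stood at 10.2, 5.65, 8.86 and 3.99 CPM across WT replicates 1 to 4, and across the 3A replicates in the same order at 11.6, 14.1, 16.9 and 18.5 CPM. Unlike lin-15B, it had no overlap between the groups, though the lowest 3A library was close to WT replicate 1. The log2 fold change was 1.08 (SE 0.32, edgeR's unadjusted p = 0.0057 and adjusted p = 0.314), and without WT replicate 1 it was 1.30 (adjusted p = 0.0455). The mean log2 ratio of lin-15A to lin-15B per length was 0.70 ± 0.33 for WT and 0.82 ± 0.30 for 3A (SD, n = 4 each), a ratio examined after its values were seen.

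Genes that work with these 8 were described from 7 lists of 50 genes, of which 49 were tested and jmjd-1.1 was not. None was called in either direction (edgeR, 0 of 49), against 0.371% of all genes tested, and DESeq2 called 1, set-21, against 1.18% of the genes to which it gave an adjusted p-value. An edgeR fit with 1 surrogate variable called 4 of the 49 (set-21, cec-7, hrde-1 and lin-38), against 3.02% of all genes tested. Before adjustment 6 of the 49 (12.2%) had a p-value under 0.05, against 9.75% of all genes. Of the 49 log2 fold changes 42 were above 0, and their median was 0.36, against -0.08 for all genes. The lists were chosen with earlier results of these data known, so this comparison is a description only. With library size alone 27 of the 49 were above 0, and 42 lay above the median of all genes, as did 45 with TMM. The early embryo markers had 16 of 18 above 0 with a median of 0.62, and the late markers 4 of 20 with a median of -0.49, with 0 genes called in either. The vitellogenin genes of adult intestine had 6 of 6 above 0 with a median of 0.84, and the 2 sperm protein genes that were tested had 2 of 2 with a median of 0.87, again with 0 called. The part of embryo age or of adult RNA in the lists' medians was not tested.

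**Figure D5:**
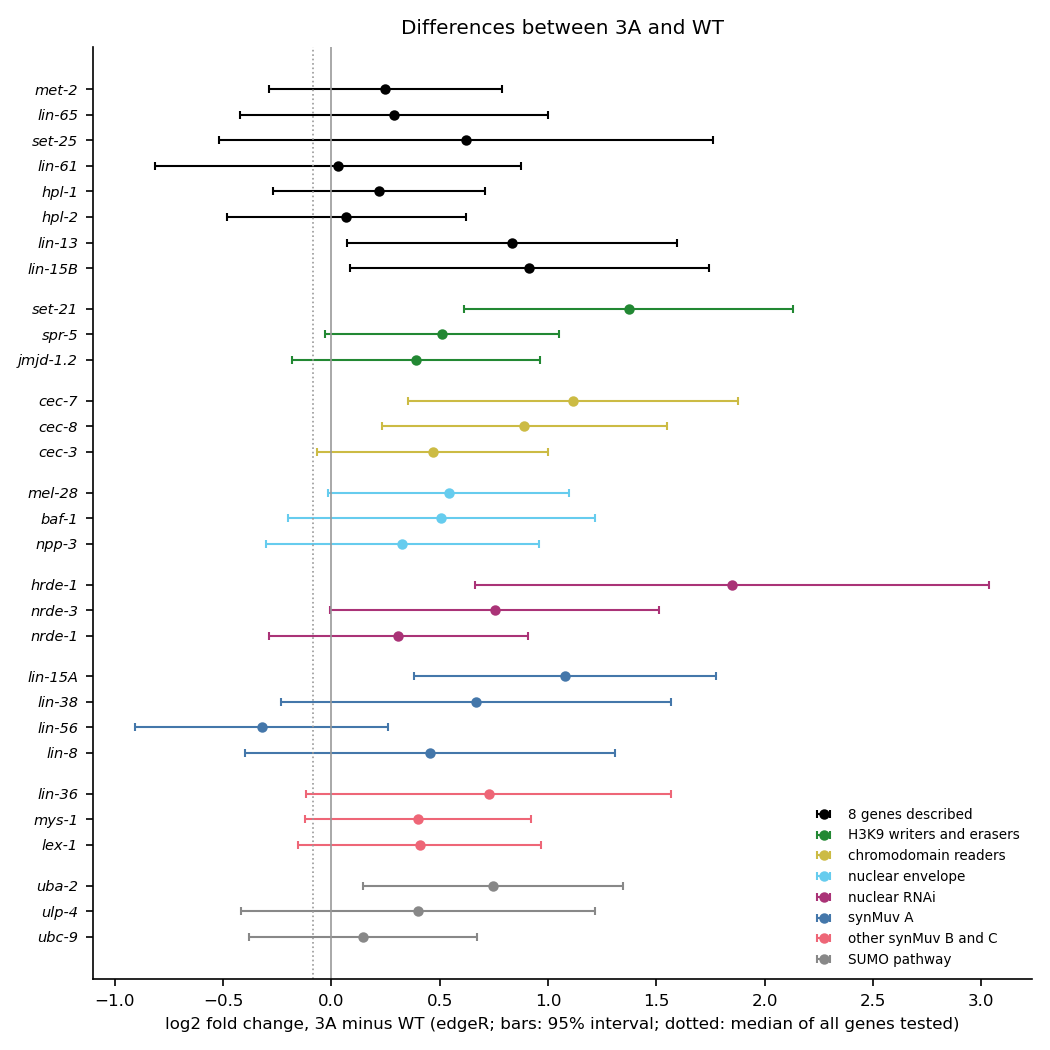
Log2 fold change (3A minus WT) with its 95% interval for the 8 genes (black) and for the genes with the smallest p-values in each of 7 related lists (colours). The dotted line is the median of all genes tested, -0.08, and hrde-1, set-21, cec-7 and lin-15A are the points beyond 1.

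Among other writers, cofactors and erasers of histone methylation (8 tested, median log2 fold change 0.25) the smallest p-value was that of set-21, a predicted SET-domain methyltransferase gene. It stood at 4.64, 1.63, 2.73 and 1.99 CPM across WT replicates 1 to 4, and across the 3A replicates in the same order at 5.62, 6.93, 7.445 and 8.61 CPM, with no overlap. Its log2 fold change was 1.37 (SE 0.35, edgeR's unadjusted p = 0.00205 and adjusted p = 0.213), and it passed in 4 of the 15 alternative fits, with DESeq2 at an adjusted p of 0.0306 and without WT replicate 1 at 0.00878. spr-5, an LSD1-type demethylase gene, had a log2 fold change of 0.51 (SE 0.25), and jmjd-1.2, a demethylase gene for H3K9 dimethylation, one of 0.39 (SE 0.26).

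The chromodomain genes (8 tested, median 0.47) were led by cec-7 and cec-8. cec-7 stood at 20.2 ± 8.72 CPM for WT and 43.6 ± 11.4 CPM for 3A (SD, n = 4 each), which edgeR put at a log2 fold change of 1.11 (SE 0.35, adjusted p = 0.341). Its groups overlapped, with WT replicate 1 at 29.5 CPM and 3A replicate 2 at 26.7 CPM. It passed in 3 of the 15 alternative fits. The edgeR adjusted p was 0.0498 without WT replicate 1, 0.0393 with replicate number as a block and 0.0235 with 1 surrogate variable. cec-8 stood at 267, 245, 208 and 386 CPM across WT replicates 1 to 4, and across the 3A replicates in the same order at 458, 506, 559 and 527 CPM, with no overlap and a log2 fold change of 0.89 (SE 0.30, edgeR's adjusted p = 0.393). cec-3 had a log2 fold change of 0.47 (SE 0.24).

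The nuclear RNAi genes (6 tested, median 0.25) held the largest fitted value, that of hrde-1, the germline nuclear Argonaute. It was weak, at 1.95, 0.428, 1.00 and 0.498 CPM across WT replicates 1 to 4, and across the 3A replicates in the same order at 2.78, 2.01, 2.725 and 6.96 CPM. The groups did not overlap, though WT replicate 1 came close to 3A replicate 2. The log2 fold change was 1.85 (SE 0.54, edgeR's adjusted p = 0.313). The edgeR adjusted p was 0.0326 without WT replicate 1 and 0.0320 with 1 surrogate variable. nrde-3, a somatic nuclear Argonaute, followed with 0.75 (SE 0.35), and nrde-1 with 0.31 (SE 0.27).

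Of the nuclear envelope genes (7 tested, median 0.33), mel-28, needed for nuclear pore assembly, had a log2 fold change of 0.54 (SE 0.26) and no overlap between the groups. baf-1, which links chromatin to the envelope, had 0.51 (SE 0.32), and the nucleoporin gene npp-3 had 0.33 (SE 0.29).

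The class A genes other than lin-15A were lin-38 at a log2 fold change of 0.67 (SE 0.41), lin-8 at 0.45 (SE 0.39) and lin-56 at -0.32 (SE 0.27). Of the remaining synMuv class B and C genes (8 tested, median 0.38) the smallest p-values belonged to lin-36 at 0.73 (SE 0.38), mys-1, a TIP60-type acetyltransferase gene, at 0.40 (SE 0.24) and lex-1 at 0.41 (SE 0.26). Of the SUMO pathway (8 tested, median 0.08) they belonged to uba-2, a subunit of the activating enzyme, at 0.75 (SE 0.27), ulp-4, a SUMO protease gene, at 0.40 (SE 0.37) and ubc-9, the conjugating enzyme gene, at 0.15 (SE 0.24). Leaving out lin-15A, the edgeR adjusted p-values of the genes named in this paragraph were 0.435 and upwards in the main fit. In the edgeR fit with 1 surrogate variable lin-38 was called (adjusted p = 0.0428).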

How the data were processed

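Per the labels' protocols, total RNA (1 µg per library) was poly(A)-selected, prepared with a directional kit and read as 150-bp pairs. The values the authors deposited are raw counts, in a separate table for each library, of 46748 gene identifiers and 5 closing counters in HTSeq's form. The submitters' processing notes name fastp, STAR, HTSeq, DESeq2 and WBcel235, without versions. The annotation release is not given in the sources used here. Pairs assigned to more than 1 gene (0.404% to 0.925% of all pairs counted), aligned to several places (1.82% to 14.4%) or to no gene (0.661% to 0.985%) stay outside the gene counts.

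The main test used edgeR 4.0.16 (R 4.3.3), with filterByExpr (minimum count 10) and TMM scaling. The TMM factors ran from 0.730 (replicate 1) to 1.92 (replicate 3) in WT. In 3A they ran from 0.630 (replicate 4) to 1.44 (replicate 2). Strains were compared by the quasi-likelihood F-test, adjusted over 12664 genes. A standard error is the log2 fold change over the root of F, and 95% intervals use the t distribution. DESeq2 1.42.0 and sva 3.50.0 served for alternatives. A count of 3, the smallest taken as detectable, was 0.0229 to 0.275 CPM. Exon lengths, positions and biotypes come from Ensembl release 115 (WBcel235), which held 12585 of the genes tested. Levels per length are TMM-scaled CPM per kilobase of exon. No replicates agreed within sampling noise (lowest chi-square per degree of freedom 55.6), and no label says whether they came from separate cultures, so p-values measure the spread between these samples. The members and lists were chosen with earlier results of these data known. Named genes are the 8 members and the 3 genes with the smallest p-value of each list (all 4 of class A). Also named are unc-64 and lin-15A, which overlap members, and the gene most like each member. lin-13 also overlaps a pseudogene (44 shared exon bases) and a snoRNA gene. set-25 also overlaps a piRNA gene (21 shared exon bases) and the protein-coding gene F56A8.8. Length classes, the ribosomal RNA order and the lin-15B ratios were added after the data were seen. No sequences are shown.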

Additional observations from a re-analysis of the deposited data

Results flagged for a closer look

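Each of 32 sets of 4 libraries (levels, ratios and marker sums, by strain) was searched for a library far from the other 3, which chance gives in about 1 set of 20, and 2 were found. hpl-1 stood at 14.4 CPM in WT replicate 1, against 10.96 to 11.5 CPM in the other WT libraries. The 6 vitellogenin genes, markers of adult intestine, summed to 76.6 CPM in WT replicate 4, against 2.73 to 12.3 CPM in the other WT libraries. In 3A the vitellogenin sum was 1.45, 4.76, 68.4 and 102 CPM in replicates 1 to 4.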

How the results depend on the processing

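None of the 8 genes was called in 14 of the 15 alternative fits, and without WT replicate 1 the count was 1 (lin-15B). Leaving out 1 library at a time gave 0 to 1 of the 8 called, 0 to 3 of the 8 without overlap, 0 to 4 of the 49 related genes called and 18 to 196 genes called in all, against 47 (18 without WT replicate 2 or 3A replicate 3, 25 without WT replicate 3, 30 without 3A replicate 1, 196 without WT replicate 1). In all, 157 genes were called with DESeq2, 10 with library size alone, 71 with no filter on low counts and 383 with 1 surrogate variable. Of the related genes DESeq2 called 1 and the surrogate variable 4. Same-numbered libraries correlated in their deviations from the group means by 0.66, 0.66, 0.20 and -0.033 for replicates 1 to 4, so the numbers were not taken as pairs. With the replicate block 175 genes were called, 0 of the 8 and 2 of the related genes (set-21 and cec-7), and not every library correlated best with its own number. Library size alone gave log2 fold changes of -0.084 (hpl-1), -0.20 (hpl-2), -0.40 (lin-61), -0.0011 (lin-65), -0.096 (met-2), -0.072 (nrde-1), -0.028 (ulp-4) and -0.19 (ubc-9). Measured from the all-gene median the first 5 were then 0.32, 0.20, -0.00022, 0.40 and 0.30. With 1 library left out, lin-61 ranged from -0.20 (without WT replicate 1) to 0.38 (without WT replicate 3), and was also below 0 without WT replicate 4 (-0.019), 3A replicate 2 (-0.13) and 3A replicate 3 (-0.098), and hpl-2 ranged from -0.016 (without WT replicate 3) to 0.14. The cause was not tested. With 1 library left out the difference in the log2 ratio of hpl-1 to hpl-2 ranged from 0.047 to 0.23 (0.15 with all) and that of met-2 to set-25 from -0.73 to -0.063 (-0.40 with all). Both kept their sign. Pairing by replicate number leaves such a mean difference the same by arithmetic, so it could not test either. Of the 8 genes set-25 had the fewest counts, as few as 29 in a library.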
